A study of Mus musculus with 60 samples.

Results

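Gene expression was compared between islets with MYC switched on for 32 h and for 16 h, in 8 of the 60 arrays of the series. Members were all MycON arrays of these times that the submitters kept, 4 at each time, with 2 exenatide and 2 water arrays each. The same step was read in 11 MycOFF arrays, 5 at 16 h and 6 at 32 h. Every mouse carried the pIns-MYCERTAM transgene on the CBA-C57BL/6 background and was male. The labels give the age as 8-12 weeks in one place and as 3 months at the start in another. MycON mice received 1 mg of 4-hydroxytamoxifen per day into the abdominal cavity, and MycOFF mice received peanut oil. Exenatide, the GLP-1 receptor agonist also called exendin-4, was injected under the skin at 50 µg/kg, and control mice received water, both from 2 days before. Islets were cut by laser from frozen sections of 15 µm. The labels call the arrays biological replicates and do not tie them to named animals, so p-values measure a spread between arrays. That spread, and each standard error, was pooled over the 52 arrays kept at all times, not taken from the 8 MycON arrays alone. Where a gene varied more in some groups than in others, the pooled value can be too small for those groups.

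MYC is a transcription factor that binds DNA together with MAX, mostly at the sequence CACGTG. It is known for raising genes of ribosome production, nucleotide synthesis and entry into the cell cycle. The transgene is read in beta cells from an insulin promoter. Its product joins MYC to an altered oestrogen receptor domain and is active only when 4-hydroxytamoxifen is bound. Adult beta cells rarely divide, and genes of mitosis are transcribed mainly as dividing cells approach it, so their transcripts mark cycling cells. No group without the transgene received 4-hydroxytamoxifen, so effects of the drug and of MYC cannot be told apart. With daily dosing, the time since the last dose and the hour of collection can differ between 16 and 32 h along with the duration of MYC activity. The labels give no clock times, and these cannot be told apart. The number of cells of a type and the RNA per cell also cannot be told apart in such bulk samples.

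All values are log2 deviations of a probe set (the probes that together report 1 transcript) from its own median over the 60 arrays. They show differences between arrays and no absolute level. Arrays are called first, second or the third by the replicate number in their label, and 4 MycON values are given in the order exenatide, exenatide, water, water. The SD within an array was 0.379 to 0.526 in the MycON arrays at 16 h and 0.391 to 0.412 at 32 h. The first MycON exenatide array at 16 h stood apart. Its mean over macrophage, acinar and stromal markers was 2.19, 2.32 and 1.65, although the third MycON water array at 32 h was higher for acinar markers, at 3.09. The correlation within its group was 0.032 across genes, which are not independent replicates, against 0.225 to 0.341 in the other MycON groups. Such a correlation does not tell which array of a pair is apart. The first MycON water array at 16 h was lowest of the 8 for stromal markers, at -1.27, and highest for genes of mitosis, at 3.89. The third MycOFF exenatide array at 16 h had the widest spread of these MycOFF arrays, 0.946 against at most 0.491 at 32 h. Its mean was 2.86 over acinar and 2.93 over skin and muscle markers. Over genes of ribosome production and of nucleotide synthesis it was -1.22 and -1.40. The part of this array in the MycOFF steps of these lists was not tested. The islet label was checked against Ins2, which encodes insulin. It lay between 0.01 and 0.81 in the 8 MycON arrays and did not stand low in any of them. In MycOFF it ran from -4.03 to -0.01 at 16 h, below all 8 MycON arrays, and from -7.15 to 0.93 with a median of -1.65 at 32 h. Insulin transcript was thus low in part of the MycOFF arrays that serve as the comparison, and its part in the MycOFF step was not tested. Array medians over beta cell transcription factors were 0.413 at 16 h and 0.426 at 32 h in MycOFF, against 0.349 and -0.166 in MycON. For secretory granule genes they were 0.092 and 0.357 against -0.11 and 0.002. For glucose sensing and hormone genes they were -0.109 and 0.23 against 0.162 and 0.119. Single arrays differed from these medians. The third MycOFF exenatide array at 16 h was at -0.396, -0.69 and -0.603 for these lists in turn, below all 8 MycON arrays. For glucose sensing and hormone genes the first exenatide and second water MycOFF arrays at 32 h were also below them, at -0.581 and -0.731.

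From 16 to 32 h of active MYC, 20 of 46 tested genes of mitosis and 2 of 7 inhibitors of cyclin-dependent kinases fell, while 6 of 46 genes of ribosome production and 2 of 22 of nucleotide synthesis rose. In limma, 158 of 13176 genes had an adjusted p (Benjamini-Hochberg) under 0.05. Of these, 63 were higher at 32 h, which is 0.478% of the genes tested, and 95 were lower, which is 0.721%. There were 145 with a change of at least 2-fold, and all 158 had the same sign with exenatide and with water. Calls were made on the mean of both injections, which favours equal signs, so this is no independent support. The 32 h arrays lay wholly above the 16 h arrays for 55 of the 63, and for 3.23% of all genes. They lay wholly below for 75 of the 95, and for 4.37% of all genes. The genes were called on the difference between these same arrays, which favours such separation, so it is no independent support either. The last genes inside the threshold were Cenpk (-2.20, adjusted p = 0.0493) and Lyrm2 (-1.25, 0.0481), and the first outside were Yars2 (1.24) and Zfp9 (-1.94), both at 0.0505 in limma. Over all genes the median difference was -0.06, and 38.4% of genes were above 0.

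The count of 158 depended on how the spread was estimated and on single arrays. A fit of the 8 MycON arrays alone called 0 genes, although 1693 had an unadjusted p under 0.05 in it, and a fit with all 60 arrays called 6. Quantile normalization gave 297 genes, with 159 higher and 138 lower, and scaling each array by its median and deviation gave 348, with 108 higher and 240 lower. The count was 42 without the first MycON water array at 16 h, 79 and 95 without the second and first exenatide arrays at 32 h, and 77 and 96 without the third and the second water arrays at 32 h. Without both arrays that stood apart it was 155, but with 38 higher and 117 lower.

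The same step in MycOFF islets gave no gene past the threshold in limma, with 526 genes (3.99%) at an unadjusted p under 0.05. The 63 genes that rose in MycON had a median difference of 1.56 there and of 0.01 in MycOFF. The 95 that fell had a median of -1.77 in MycON and of -0.07 in MycOFF. The MycOFF difference was above 0 for 52.9% of all genes tested. It had the same sign as the MycON difference for 33 of the 63 that rose and for 60 of the 95 that fell. It reached an unadjusted p under 0.05 in the same direction for 1 gene of each set. It did so in the opposite direction for 4 of the 95 genes that fell, Nudt1, Glb1l2, Dhx40 and 0610009L18Rik, and for 0 of the 63 that rose. For 0 of the 158 genes was the MycOFF difference over 0.5 of the MycON difference. The plot of both steps shows the genes spread along the MycON axis and close to 0 on the MycOFF axis. Without the third MycOFF water array at 16 h, 10 genes were called in MycOFF, all lower.

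**Figure D1:**
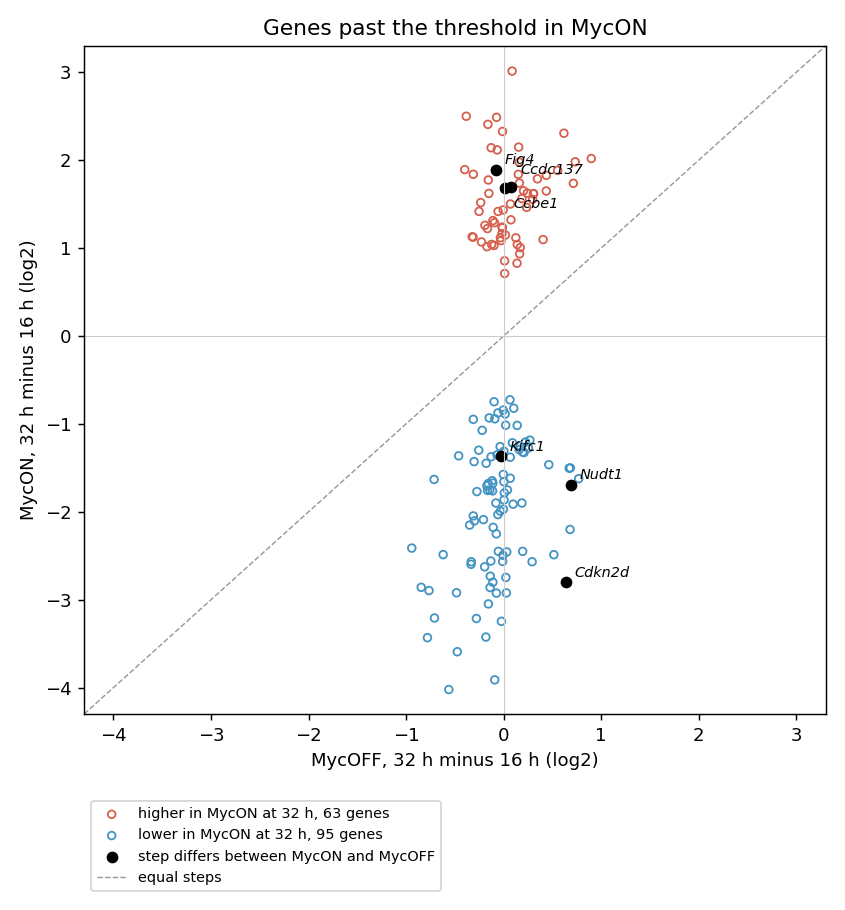
Each point is a gene past the threshold in MycON, with its log2 difference between 32 and 16 h in MycOFF islets (horizontal) and in MycON islets (vertical), and the dashed line marks equal steps. The 63 genes higher in MycON have a MycOFF median of 0.01 and the 95 lower ones of -0.07, and black points name the 6 genes whose steps differed by limma's test.

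A direct test of the MycON step against the MycOFF step called 6 genes (0.0455%), 3 in each direction, with 928 at an unadjusted p under 0.05. It uses the same MycON arrays as the step itself. Cdkn2d encodes an INK4 inhibitor of the kinases that start the cell cycle. Its values at 16 h of MYC were 1.77 and 2.23 with exenatide and 3.13 and 2.25 with water. At 32 h they were -0.59 and -0.23 with exenatide and -0.02 and -0.97 with water, so the groups were far apart. The 5 MycOFF arrays at 16 h ran from -1.05 to 0.12, and the 6 at 32 h from -0.31 to 0.73 with a median of 0.03. Cdkn2d thus fell by 2.80 ± 0.37 (SE; 6.97-fold; adjusted p = 3.42e-05) in MycON, while its MycOFF step was upward, at 0.64 ± 0.32, and the steps differed by -3.44 ± 0.49 (limma adjusted p = 3.41e-04).

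Ccbe1, which encodes a secreted matrix protein known for its part in lymphatic vessel growth, showed the smallest adjusted p of the step. Its values were -0.17, -0.02, -0.24 and -0.02 in the 4 MycON arrays at 16 h and 1.72, 1.55, 1.10 and 1.90 at 32 h. All MycOFF arrays lay between -0.16 and 0.11. The step was 1.68 ± 0.18 (3.21-fold; adjusted p = 1.02e-06) in MycON and 0.01 ± 0.16 in MycOFF, a difference of 1.67 ± 0.24 (limma adjusted p = 3.41e-04). The 3 other probe sets of Ccbe1 differed by -0.04 to 0.01, so the rise rests on 1 probe set. Nudt1 encodes the hydrolase that removes oxidised nucleotides from the DNA precursor pool, and it fell by 1.69 ± 0.33 in MycON while MycOFF differed by 0.69 ± 0.28. Its MycOFF values at 32 h ran from -0.14 to 1.98 with a median of 0.03, so a single array set the top of that range. The steps of Nudt1 differed by -2.38 ± 0.43 (limma adjusted p = 0.0156).

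The other genes of this test were Ccdc137, Fig4, which encodes a phosphoinositide phosphatase, and Kifc1, which encodes a motor that gathers spindle poles. Ccdc137 rose by 1.70 ± 0.24 and Fig4 by 1.89 ± 0.30 in MycON, against 0.08 and -0.08 in MycOFF. Fig4 lay between -0.40 and 0.39 in the MycON arrays at 16 h and between 1.64 and 2.28 at 32 h. Kifc1 fell by 1.37 ± 0.20, from 2.60, 1.38, 0.94 and 0.33 at 16 h to between -0.11 and -0.01 at 32 h. The steps differed by 1.62 for Ccdc137, 1.98 for Fig4 and -1.34 for Kifc1 (limma adjusted p = 0.0448, 0.045 and 0.0454). These 3 calls ended when single arrays were left out, in 12, 13 and 16 of 19 cases, and that of Nudt1 in 3, with adjusted p up to 0.185. The calls of Cdkn2d and Ccbe1 held in all 19, and the count of 6 ran from 2 without the third MycON water array at 32 h to 63 without the second at 16 h.

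**Figure D2:**
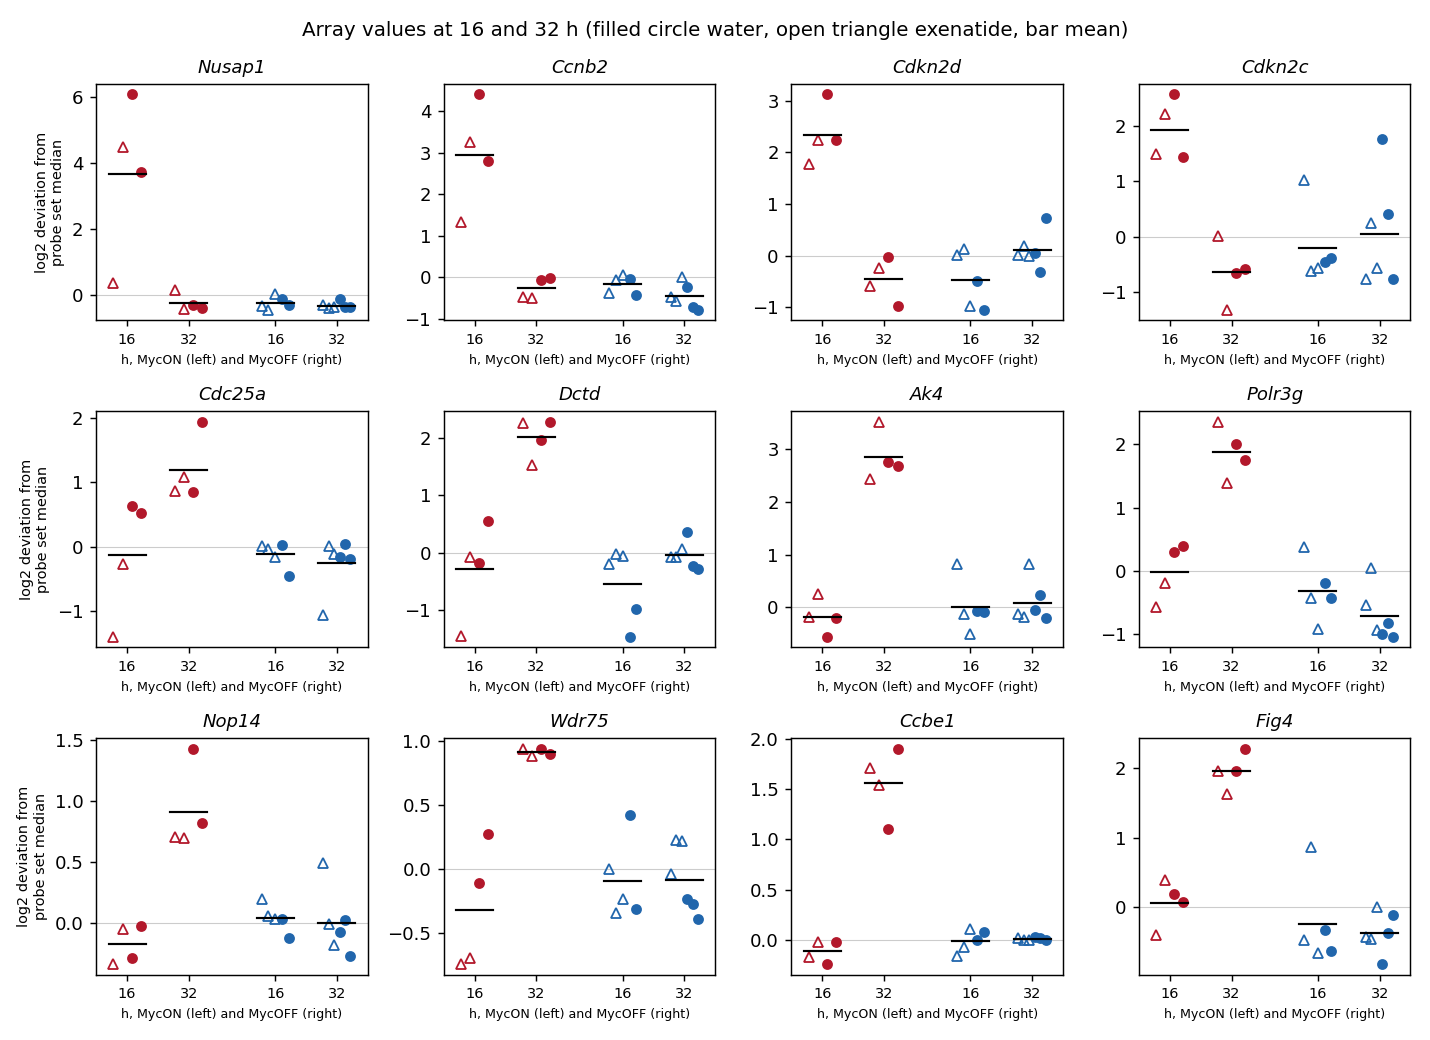
Log2 deviations from the probe set median in every array kept at 16 and 32 h, MycON in red and MycOFF in blue, filled circles for water, open triangles for exenatide and bars for means, with a scale of its own for each gene. Nusap1, Ccnb2, Cdkn2d and Cdkn2c are high in MycON arrays at 16 h, and Dctd, Ak4, Polr3g, Nop14, Wdr75, Ccbe1 and Fig4 are high at 32 h.

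Genes of mitosis made up the largest group that fell. Of 46 tested members of a list of 51, 20 fell and 0 rose, all 46 had a negative difference, and their median was -2.44 against -0.06 over all genes. In MycOFF the median of these members was -0.09 and 0 passed the threshold. The list's mean was 0.59 and 2.74 in the exenatide arrays and 3.89 and 1.74 in the water arrays at 16 h of MYC. At 32 h it was -0.03, 0.01, -0.21 and 0.07, below every 16 h array. MycOFF arrays ran from -0.96 to -0.13 at 16 h and from -0.71 to -0.42 at 32 h. For 24 of the 46 the 32 h arrays lay wholly below the 16 h arrays, against 4.37% of all genes.

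Ccnb2, a cyclin that activates the kinase driving cells into mitosis, was at 1.33 and 3.25 with exenatide and at 4.40 and 2.80 with water at 16 h. At 32 h it was at -0.47, -0.51, -0.08 and -0.02, and MycOFF arrays at 32 h ran from -0.78 to -0.01 with a median of -0.52. Ccnb2 fell by 3.21 ± 0.56 (9.28-fold; limma adjusted p = 0.00154). The mitotic kinases Aurka, Aurkb and Bub1 fell by 1.90 ± 0.43, 2.63 ± 0.63 and 2.86 ± 0.61. Among spindle genes, Nusap1, which bundles microtubules, fell by 3.91 ± 0.65 (adjusted p = 0.00107 in limma), from 0.35 and 4.48 with exenatide and 6.08 and 3.71 with water to between -0.45 and 0.15. The first exenatide array at 16 h, which stood apart, was thus only just above the 32 h arrays for Nusap1. Prc1, which holds the central spindle together, fell by 3.05 ± 0.61, and the spindle factors Hmmr and Tpx2 fell by 3.21 ± 0.81 and 2.45 ± 0.48. The mitotic motors Kif11, Kif4, Kif22 and Kif20a fell by 2.73, 2.25, 1.90 and 0.93.

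At the kinetochore, where chromosomes meet the spindle, Cenpf fell by 4.02 ± 0.77 (16.2-fold; limma adjusted p = 0.0037), the largest fall past the threshold. Cenpf stood at 2.87, 3.46, 4.67 and 3.01 at 16 h and between -0.94 and -0.19 at 32 h, with no overlap. Spc24 and Nuf2, subunits of the complex that grips microtubules, fell by 2.49 ± 0.51 and 1.57 ± 0.41. Birc5, of the chromosomal passenger complex, fell by 2.92 ± 0.57, and Anln, which shapes the cleavage furrow, by 2.56 ± 0.57. Ckap2l and Cdca3 fell by 2.75 and 1.97. Ube2c, the conjugating enzyme of the anaphase-promoting complex, went from 2.50, 2.12, 3.69 and 3.54 at 16 h to 0.76, 0.91, -0.22 and 0.01 at 32 h, a fall of 2.60 ± 0.45 (limma adjusted p = 0.00141). Top2a, which untangles chromosomes, differed by -2.65 ± 0.82 and did not pass (adjusted p = 0.112), and Ccnb1 was not used here. Other probe sets of Cenpf differed by only -0.05 to -0.01, that of Nusap1 by -0.43 and those of Hmmr by -1.91 to -0.05, while the other one of Prc1 differed by -2.31.

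The calls of Cenpf, Birc5 and Prc1 ended without the first water array at 16 h, and that of Prc1 also without the third exenatide array at 16 h (limma adjusted p up to 0.054, 0.0696 and 0.102). The call of Hmmr ended without any 1 of these or of the 4 MycON arrays at 32 h (up to 0.261), and those of Ccnb2, Nusap1 and Ube2c held without any single array. The list's count of 20 rested on few arrays. It was 3 without the first MycON water array at 16 h, 31 without the second, and 7 without the third exenatide array at 16 h. Leaving out each 32 h array in turn gave 10 or 11. Water arrays alone called 11 members and exenatide arrays alone 0, with list medians of -3.02 and -1.67, and without both arrays that stood apart it was 29.

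Stretches upstream of start sites are printed for 4 of these mitotic genes that fell, as examples that hold both kinds of letters marked below. Not all such genes do: Nusap1 and Nuf2 held neither kind, and Birc5 held no CCAAT. Each runs from 250 bases before to 30 bases after the RefSeq start (GRCm38.p6), on the gene's strand. Capitals mark CCAAT, known as a site of the factor NF-Y, and TTTGAA or TTTAAA, known as the cell cycle homology region, each read on both strands.
Ccnb2 (chr9:70421525-70421804, minus strand): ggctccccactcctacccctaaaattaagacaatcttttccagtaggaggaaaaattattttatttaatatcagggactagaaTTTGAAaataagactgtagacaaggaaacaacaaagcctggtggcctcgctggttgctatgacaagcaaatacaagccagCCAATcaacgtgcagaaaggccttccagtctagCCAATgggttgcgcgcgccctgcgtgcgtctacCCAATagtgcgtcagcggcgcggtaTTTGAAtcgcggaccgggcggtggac
Cenpf (chr1:189688057-189688336, minus strand): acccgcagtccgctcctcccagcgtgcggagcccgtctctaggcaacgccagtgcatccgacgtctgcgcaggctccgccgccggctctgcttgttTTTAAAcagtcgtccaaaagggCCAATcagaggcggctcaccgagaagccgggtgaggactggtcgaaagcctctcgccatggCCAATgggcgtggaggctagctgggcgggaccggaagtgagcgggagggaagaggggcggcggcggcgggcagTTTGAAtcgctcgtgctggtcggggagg
Prc1 (chr7:80294201-80294480, plus strand): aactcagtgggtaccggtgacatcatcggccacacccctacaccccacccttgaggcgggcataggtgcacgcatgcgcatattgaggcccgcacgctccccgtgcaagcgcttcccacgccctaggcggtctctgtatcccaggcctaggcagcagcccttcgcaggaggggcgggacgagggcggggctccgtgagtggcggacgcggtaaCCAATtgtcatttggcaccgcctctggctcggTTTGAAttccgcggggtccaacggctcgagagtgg
Ube2c (chr2:164769679-164769958, plus strand): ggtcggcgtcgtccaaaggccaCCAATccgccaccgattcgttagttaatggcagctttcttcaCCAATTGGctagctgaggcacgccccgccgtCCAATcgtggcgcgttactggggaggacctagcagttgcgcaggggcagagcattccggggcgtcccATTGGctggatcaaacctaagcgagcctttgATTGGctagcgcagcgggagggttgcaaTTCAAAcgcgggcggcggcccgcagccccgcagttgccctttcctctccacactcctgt
Ccnb2 has CCAAT at 87, 54 and 21 bases before the start and TTTGAA just after it, with another TTTGAA 167 bases before. Prc1 has a single CCAAT 37 bases before and TTTGAA 5 bases before the start. Ube2c has 6 CCAAT letters in either direction, 1 pair of them overlapping, and the reverse of TTTGAA 29 bases before the start.

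Promoters were found for 10622 of the 13176 genes tested, and for 16 of the 20 mitotic genes that fell. CCAAT was in 12 of these 16 (75%) and in 37.7% of all promoters. TTTGAA or TTTAAA was also in 12 of the 16 and in 19.7% of all. Among all genes that fell, 48 of 76 promoters (63.2%) held CCAAT and 28 (36.8%) held TTTGAA or TTTAAA. Among those that rose the shares were 23 of 51 (45.1%) and 7 of 51 (13.7%). The MYC site CACGTG was in 8 of 51 promoters of genes that rose (15.7%), in 10 of 76 of genes that fell (13.2%) and in 9.47% of all. The E2F letters TTTCCCGC or TTTGGCGC were in 2 of 51 (3.92%), 4 of 76 (5.26%) and 2.7%. These shares describe letters in a window and were not tested.

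Other genes with known mitotic roles were outside the list and are named here after their values were seen. Gas2l3, which links microtubules to actin late in division, fell by 3.42 ± 0.76, and Pbk, a mitotic kinase, by 3.43 ± 0.75. Spag5, Knstrn and Sgo1, which act at spindles and centromeres, fell by 2.80, 2.56 and 2.45. The centromere genes Cenpk, Cenpl and Cenpw fell by 2.20, 1.76 and 1.75, and Sass6, which starts new centrioles, by 1.76. Pclaf, which binds the replication clamp PCNA, fell by 3.25 ± 0.64 (limma adjusted p = 0.00447), although its other probe sets differed by -0.77 to -0.22. D17H6S56E-5, Wdr90 and 4930579G24Rik, for which no role is given here, fell by 3.59, 2.92 and 2.92. Each of the calls of Gas2l3, Pbk, D17H6S56E-5, Wdr90, 4930579G24Rik and Pclaf ended without the first MycON water array at 16 h, and all but that of Pclaf without further single arrays as well (limma adjusted p up to 0.222).

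Genes of DNA replication gave 2 calls among 33 tested, both falls: Pole, the catalytic subunit of a leading-strand polymerase, by 2.46 ± 0.57, and Rfc2, of the clamp loader, by 1.33 ± 0.34 (limma adjusted p = 0.0217 and 0.0368). Pole stood at -0.01, 3.36, 4.47 and 1.34 at 16 h, with the lowest value in the array that stood apart, and between -0.80 and 0.14 at 32 h. The call of Pole ended without any 1 of 5 arrays, the third exenatide and first water arrays at 16 h and the first exenatide and both water arrays at 32 h (limma adjusted p up to 0.268). That of Rfc2 ended without any 1 of these or of the second exenatide array at 32 h (up to 0.319), and both ended in a fit of the 19 arrays of 16 and 32 h. Rfc2 differed by -2.02 with water and -0.64 with exenatide. The list's median was -0.62, with 24 of 33 below 0. It was -1.16 in water arrays and 0.05 in exenatide arrays. The helicase genes Mcm2 to Mcm7 differed by -0.17 to 0.31, and the loading factors Cdt1 and Cdc6 by 0.52 and 0.93, all with adjusted p of at least 0.807 in limma. Cdt1 was at -0.43, 2.28, 2.67 and 0.36 at 16 h and at 2.00, 2.01, 1.01 and 1.94 at 32 h, so the groups overlapped. The MycOFF step of Cdt1 was 1.72 ± 0.67.

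Cyclins, kinases and their regulators gave 2 calls among 20 tested. Ccna2, a cyclin of S phase and G2, fell by 2.86 ± 0.70, and Cdc25a, the phosphatase that activates these kinases, rose by 1.31 ± 0.27 (limma adjusted p = 0.0309 and 0.00809). Cdc25a was at -1.40, -0.27, 0.63 and 0.53 at 16 h and at 0.87, 1.08, 0.85 and 1.94 at 32 h, above every 16 h array by a small margin. The call of Ccna2 ended without any 1 of the 4 MycON arrays at 32 h, the third exenatide array or the first water array at 16 h (limma adjusted p up to 0.27). Cdc25a no longer passed without both arrays that stood apart, without the first exenatide array at 16 h or the third water array at 32 h, or in a fit of the 19 arrays, and its other probe sets differed by 0.05 to 0.78. Ccne1, a G1 cyclin, differed by -0.75 ± 0.48 (adjusted p = 0.7) and Ccnd1 by 0.04. Cdkn2c, an INK4 inhibitor like Cdkn2d, fell by 2.57 ± 0.48 (5.93-fold; limma adjusted p = 0.00301). Its values were 1.50, 2.22, 2.57 and 1.45 at 16 h and 0.01, -1.31, -0.66 and -0.58 at 32 h, with no overlap, while MycOFF arrays at 32 h ran from -0.77 to 1.76. The steps of Cdkn2c differed by -2.86 ± 0.64 (adjusted p = 0.058). The other 5 of 7 inhibitor genes did not pass. Cdkn1a, which encodes p21, differed by 0.28 ± 0.86, Cdkn2b by -1.05 and Cdkn2a by 1.15 (adjusted p = 0.992, 0.0719 and 0.0755).

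Among genes of ribosome production the calls were upward. Of 46 tested, 6 rose and 0 fell, 44 were above 0, and the median was 0.85 against -0.06 over all genes. The MycOFF median was 0.34 with 38 of 46 above 0, so most of this list lay above 0 in MycOFF too, with 0 past the threshold there. For 21 of the 46 the MycON arrays at 32 h lay wholly above those at 16 h, against 3.23% of all genes. The list's mean was -0.33, -0.01, -0.01 and 0.32 at 16 h and 0.78, 0.84, 1.11 and 0.73 at 32 h, and did not overlap.

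Wdr75 and Nop14 encode factors of the small subunit processome, which cuts the ribosomal RNA precursor. Wdr75 was at -0.74, -0.69, -0.11 and 0.28 at 16 h and between 0.88 and 0.94 at 32 h, a rise of 1.23 ± 0.20 (limma adjusted p = 9.18e-04). The other probe set of Wdr75 differed by only 0.283. Nop14 was between -0.33 and -0.03 at 16 h and at 0.70, 0.70, 1.43 and 0.82 at 32 h, a rise of 1.08 ± 0.18 (limma adjusted p = 0.00139). MycOFF steps of both were near 0, at -0.01 and -0.03. Nolc1, a nucleolar chaperone, rose by 2.02 ± 0.51, and Rrp1b, Rrp12 and Rrp9, nucleolar processing factors, by 1.98, 1.74 and 1.63. Nolc1 and Rrp1b also had MycOFF steps of 0.90 and 0.73. The calls of Nolc1 and Rrp1b ended without any 1 of 7 of the 8 MycON arrays, all but the third exenatide array at 16 h, and that of Rrp12 without any 1 of 4 (limma adjusted p up to 0.175, 0.282 and 0.128), while those of Wdr75 and Nop14 held. The steps of Wdr75 and Nop14 differed between MycON and MycOFF by 1.24 ± 0.27 and 1.11 ± 0.24 (adjusted p = 0.055 for each in limma). The count of 6 fell to 2 without any of 3 of the 4 MycON arrays at 32 h (all but the first exenatide array) or without the first water array at 16 h, and to 3 without the first exenatide array at 16 h. Ncl, which encodes nucleolin, differed by 0.77 ± 0.90 in MycON and 1.92 ± 0.78 in MycOFF and did not pass.

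Polr3g, a subunit of RNA polymerase III, was the only gene of 23 for RNA polymerases I and III that passed. It stood at -0.57, -0.19, 0.30 and 0.40 at 16 h and at 2.36, 1.39, 2.00 and 1.75 at 32 h, a rise of 1.89 ± 0.36 (limma adjusted p = 0.0037). In MycOFF the step of Polr3g was -0.40 ± 0.32. The polymerase I subunits Polr1a and Polr1b differed by 1.70 and 1.57 (adjusted p = 0.0867 and 0.186), and the list's median was 0.25.

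**Figure D3:**
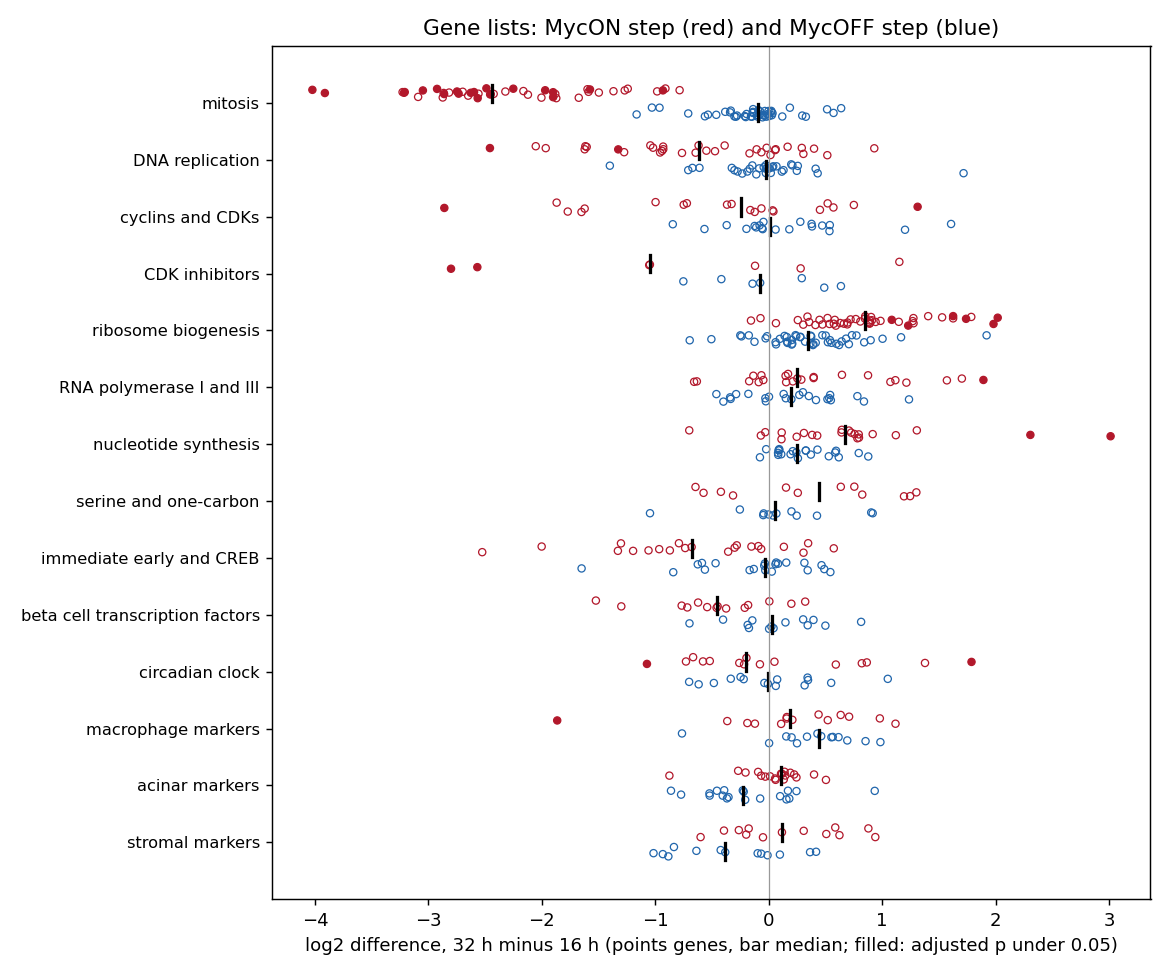
Log2 difference between 32 and 16 h for each tested gene of 14 lists, MycON in red and MycOFF in blue, with filled points for genes at an adjusted p under 0.05 and black bars for medians. The mitosis list lies wholly below 0 in MycON with a median of -2.44, and the ribosome biogenesis list has medians of 0.85 in MycON and 0.34 in MycOFF.

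Among 22 genes of nucleotide synthesis 2 rose, both enzymes of nucleotide handling rather than of the purine chain. Ak4, a mitochondrial adenylate kinase, was at -0.18, 0.24, -0.55 and -0.20 at 16 h and at 2.44, 3.52, 2.75 and 2.67 at 32 h. It had the largest rise of all genes past the threshold, 3.01 ± 0.47 (8.08-fold; limma adjusted p = 5.58e-04), but its 4 other probe sets differed by -0.06 to 0.07. Dctd, which makes the precursor of thymidylate from dCMP, was at -1.46, -0.08, -0.17 and 0.56 at 16 h and at 2.27, 1.53, 1.98 and 2.29 at 32 h. Dctd rose by 2.31 ± 0.27 (4.95-fold; limma adjusted p = 3.21e-06), with a MycOFF step of 0.62 ± 0.23. The list's median was 0.68 with 19 of 22 above 0, and 0.25 in MycOFF with 20 above 0. Ung, which removes uracil from DNA, rose by 2.50 ± 0.60, although its call ended when any 1 of 7 of the 19 arrays was left out. Slc19a1, the reduced folate carrier, rose by 2.15 ± 0.49, while its other probe sets differed by -0.01 to 1.74. Of 12 genes of serine and one-carbon metabolism 0 passed, and Psat1 differed by 0.76 ± 0.55 (adjusted p = 0.776).

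Other large rises were in genes of varied roles. Kcnq5, a voltage-gated potassium channel, rose by 2.49 ± 0.44 and Tmem158 by 2.33 ± 0.40 (limma adjusted p = 0.00185 and 0.00141). Kcnq5 was between -0.17 and 0.84 at 16 h and between 2.03 and 3.21 at 32 h, while its other probe sets differed by -0.01 to 0.27. The 2 other probe sets of Tmem158 differed by -0.01 to 0.345. Hpdl rose by 2.12 ± 0.37 and Zmynd19 by 1.98 ± 0.42. Slc6a15, a neutral amino acid transporter, rose by 2.41 ± 0.53, with 2.85 to 2 decimals in both the third exenatide array at 16 h and the second at 32 h. Amn, a partner of the vitamin B12 uptake receptor, rose by 2.14 ± 0.51, but 1 exenatide array at 32 h stayed at 0.00 while the others were at 3.48, 3.80 and 1.21. Calls of Slc6a15, Slc19a1 and Amn each ended when any 1 of 4, 4 and 5 arrays was left out, and also without both arrays that stood apart. Tspan4 differed by 1.40 ± 0.44 (adjusted p = 0.125) and did not overlap, with 0.34 to 0.65 at 16 h and 1.27 to 2.63 at 32 h.

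The arrays at 4, 8 and 72 h, which do not enter the difference between 32 and 16 h, were read next as a description. They did enter the filter, the choice of probe set and the estimate of the spread, so they are not independent of the calls. The 63 genes that rose from 16 to 32 h were higher in MycON than MycOFF arrays at 4 h, with a median of 1.36 and 61 of 63 above 0, and at 8 h, with a median of 1.05 and again 61 above 0. At 72 h their median was -0.04 with 28 of 63 above 0. Over all genes the medians were -0.06, 0.05 and -0.05, with 39.4%, 55.9% and 43.8% above 0. The 95 genes that fell had medians of -0.37, 0.29 and 0.55 at 4, 8 and 72 h, with 8, 63 and 79 above 0. This alternation was known from earlier results of these data. In MycON islets Dctd was at 1.86, 1.57, -0.29, 2.02 and -0.14 at 4, 8, 16, 32 and 72 h, and Ak4 at 3.20, 2.45, -0.17, 2.84 and -0.07. Both were thus low at 16 and 72 h. Ccnb2 was at -0.23, 0.48, 2.94, -0.27 and 2.25, high at the times when Dctd and Ak4 were low. Cdkn2d was at -0.21, -0.12, 2.34, -0.46 and 0.63, with its peak at 16 h. Ccbe1 reached 1.57 at 32 h, and its means at 4, 8, 16 and 72 h lay between -0.11 and 0.14.

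**Figure D4:**
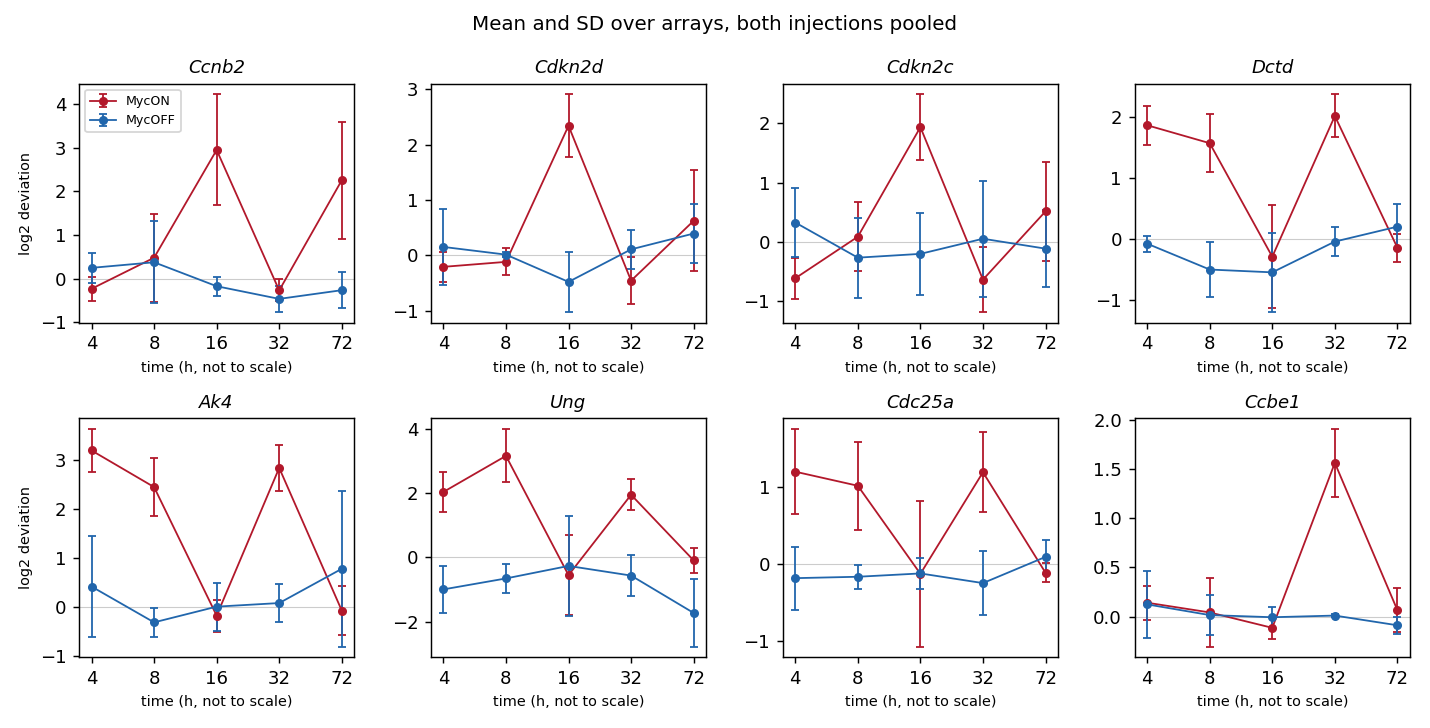
Mean log2 deviation with SD over arrays at 5 times, exenatide and water pooled, MycON in red and MycOFF in blue, times evenly spaced and not to scale. Ccnb2, Cdkn2d and Cdkn2c are highest in MycON at 16 h, Dctd, Ak4, Ung and Cdc25a are high at 4, 8 and 32 h, and Ccbe1 is high at 32 h with a mean of 1.57.

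Clock genes were read because the hour of collection can differ. Of 15 tested, Hlf rose by 1.79 ± 0.40 and Nfil3 fell by 1.07 ± 0.27 (limma adjusted p = 0.0144 and 0.0362). Hlf encodes an activator of the PAR family and Nfil3 a repressor of the same sites, both outputs of the clock. Hlf was between -0.08 and 0.00 at 16 h and at 0.20, 2.36, 2.56 and 1.91 at 32 h. Nfil3 was at 1.16, -0.12, 1.40 and 1.16 at 16 h and between -0.27 and -0.08 at 32 h, so 1 array overlapped. The call of Hlf ended without the second exenatide or second water array at 32 h or the first water array at 16 h (limma adjusted p up to 0.21). That of Nfil3 ended without any 1 of the 4 MycON arrays at 32 h, the first exenatide array or the first water array at 16 h (up to 0.306), and both ended in a fit of the 19 arrays. Dbp, another clock output gene, differed by 1.38 ± 0.51 in MycON and by 1.05 ± 0.44 in MycOFF (adjusted p = 0.225 and 0.953), nearly alike in size. Arntl differed by -0.67 and Per2 by -0.20, and Nr1d1 was left out by the filter on spread. The part of the hour in the step was not tested.

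Genes of beta cell identity and of stress gave no call. Of 14 beta cell transcription factors 0 passed in limma, 11 were below 0 and the median was -0.45. The list's mean ran from 0.20 to 0.47 in MycON arrays at 16 h and from -0.32 to 0.13 at 32 h, with no overlap. In MycOFF it ran from -0.40 to 0.48 and from 0.01 to 0.60. Pdx1, which maintains beta cells, differed by -0.72 ± 0.33 (adjusted p = 0.431) and Nkx2-2 by -1.30 (0.0862). Among 21 immediate early and cyclic AMP response genes 17 were below 0, with Fos at -2.52 (adjusted p = 0.156) and a median of -0.68. Their mean ran from 0.12 to 0.66 in MycON arrays at 16 h and from -0.43 to -0.07 at 32 h, again without overlap. In MycOFF it ran from -0.12 to 0.09 and from -0.63 to 0.11. Nr4a1 differed by 0.13 ± 0.49. Of 15 cytosolic heat shock genes 11 were below 0, with a median of -0.58, and of 18 ATF4 and CHOP genes 13 were below 0. Ddit3, which encodes CHOP, differed by -1.13 ± 0.36 (adjusted p = 0.136), from between 0.47 and 0.74 to between -0.94 and -0.26 with no overlap. Odc1, an enzyme of polyamine synthesis, differed by 0.19 ± 0.45.

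Markers of other cells gave 1 call. Cd14, a receptor of macrophages, fell by 1.86 ± 0.43 (limma adjusted p = 0.0208), from 0.22, 2.45, 2.54 and 1.89 at 16 h to between -0.10 and -0.07 at 32 h. Its call ended without any 1 of the 4 MycON arrays at 32 h, the third exenatide array or the first water array at 16 h (limma adjusted p up to 0.144). The 13 other macrophage genes tested did not pass, and 10 of all 14 were above 0. The mean of the list ran from -0.41 to 2.19 at 16 h and from 0.13 to 1.24 at 32 h. Acinar, stromal, endothelial, duct, lymphoid, skin and muscle, alpha and delta or PP cell lists had 0 genes past the threshold, with 9 of 9 skin and muscle genes below 0 at a median of -0.50. Acinar means ran from -0.21 to 2.32 at 16 h and from -0.52 to 3.09 at 32 h, and stromal means from -1.27 to 1.65 and from -0.22 to 0.58. Medians of 3 lists differed in sign between the injections. With water and with exenatide they were 1.16 and -0.57 for stromal, 0.94 and -0.46 for macrophage and 0.69 and -0.50 for acinar markers. Medians of the other marker lists lay between -0.42 and 0.45 with water and between -0.26 and 0.05 with exenatide. The part of other cells in the results was not tested. The difference between 3' and 5' probe sets of the Gapdh control ran from -0.46 to 0.53 at 16 h and from -0.97 to 0.45 at 32 h.

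The step was also read in each injection. Water arrays alone called 43 genes, 13 higher and 30 lower, and exenatide arrays alone 15, with 9 higher and 6 lower. The direct test of exenatide against water called 0 genes in limma, with 258 at an unadjusted p under 0.05 (1.96%), so no difference between the injections was detectable with 2 arrays per group. Of the 95 genes that fell, 18 had an unadjusted p under 0.05 in that test, and of the 63 that rose 4. Nusap1 differed by -5.26 with water and -2.56 with exenatide, Hmmr by -4.87 and -1.55, and Kifc1 by -0.70 and -2.04. The water count ran from 3 without the first array at 16 h to 159 without the second, and was 23 and 11 without the second and the third at 32 h. The exenatide count ran from 8 to 130, the latter without the third exenatide array at 16 h.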

How the data were processed

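Affymetrix arrays of laser-captured islets were analysed from the deposited series table. The authors deposited log2 values, and MAS5 and GCRMA are listed in the submitters' processing notes, without version or role. The build, the annotation and any further step were not given in the sources used here. Base 2 was inferred from the range of the deposited values (-12.3 to 12.8). The median of every probe set over 60 arrays is 0, so the planned filter on the mean was replaced by the interquartile range. Probe sets at or above its 40th percentile (0.101) were kept, and the widest stood for its gene. Of 45101 probe sets 34945 had 1 symbol in the array annotation, 932 several and 9160 none, and 64 controls were left out. Of the 34945, 34741 were matched to RefSeq (GRCm38.p6) by Entrez number. This left 27022 probe sets and 13176 of 18193 genes.

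The 8 arrays dropped by the submitters were left out. A linear model with 20 group means was fitted to 52 arrays with limma 3.58.1 in R 4.3.3 (eBayes, 32 residual and 2.75 prior degrees of freedom). Each contrast is the mean over exenatide and water. Calls were made at a Benjamini-Hochberg adjusted p under 0.05, and the figure after ± is the standard error of a log2 difference. Alternatives changed the arrays, the normalization, the filter, the probe set rule, the replicate block, array weights and robust moderation. The script was tested on simulated data. The number of arrays limits the precision. Named genes were the 12 largest rises and falls, up to 3 smallest p per list, the genes of the direct test and 18 fixed genes, of which 16 were tested. Other genes were named as members of a list or after their values were seen. The members, lists and tests were chosen with earlier results of these data known. Promoters are from RefSeq, and figures were drawn with matplotlib 3.10.9.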

Additional observations from a re-analysis of the deposited data

Results flagged for a closer look

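Single arrays stood away from the rest of their group by Dixon's rule in 33 of 260 sets of 4 to 6 arrays, where chance gives about 1 in 20. In MycON at 16 h these were Hpdl at 0.516 (second water array), Nfil3 at -0.116 (the third exenatide array) and Slc19a1 at -1.27 (first exenatide array). In MycON at 32 h the first exenatide array was apart for Ccdc137 (1.332), Pclaf (-0.578) and Pole (-0.796), and the second for Birc5 (0.242) and Hmmr (0.541). The second water array at 32 h was apart for Cdt1 (1.007) and Nop14 (1.426), and the third for Nr4a1 (0.962).

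In MycOFF at 16 h the second water array was apart for 4930579G24Rik (1.698) and Gas2l3 (1.283), and the third for Hpdl (0.603). The first exenatide array was apart for Amn (0.779) and Cdkn2c (1.032), and the second for Fig4 (0.875) and Top2a (-3.097). The third exenatide array had the widest spread of values, an SD of 0.946. In MycOFF at 32 h the first water array was apart for Ccdc137 (0.463), Kifc1 (0.195), Nudt1 (1.98), Nusap1 (-0.122) and Slc6a15 (0.2), the second for Cd14 (0.121), and the third for Nfil3 (0.363), Nr4a1 (1.175) and Pclaf (-0.169). The first exenatide array was apart for Cdc25a (-1.069), Cdkn1a (-2.657) and Hlf (1.649), and the third for Hpdl (0.388) and Wdr90 (2.489).

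For 6 genes the step with MYC differed from the step without it by limma's test of the difference, at an adjusted p under 0.05: Cdkn2d by -3.437, Nudt1 by -2.385, Kifc1 by -1.336, Ccbe1 by 1.671, Ccdc137 by 1.618 and Fig4 by 1.978 log2 units.

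Markers of other tissues were read in the 5 dropped arrays of 16 and 32 h, and not in the dropped arrays of other times. Mean skin and muscle marker values were 8.95 in the second MycON exenatide array at 16 h, 9.616 in the third MycON exenatide array at 32 h and 9.413 in the third MycON water array at 16 h, against at most 2.933 in the arrays kept. Mean lymphoid marker values were 4.927 in the first MycOFF water array at 16 h and 1.021 in the second MycON exenatide array at 16 h, against at most 0.812 in the arrays kept. The first MycON water array at 32 h, also dropped, was at 2.268 for skin and muscle and at 0.709 for lymphoid markers, below both maxima. The dropped arrays entered none of the results except the alternative with all 60 arrays.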

How the results depend on the processing

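No result changed direction past the threshold in the alternatives run, and the counts of calls moved as follows, with the cause not tested. With only the 8 MycON arrays, 0 genes passed, and 0 of every list. With only the 19 arrays of 16 and 32 h, exenatide alone gave 8 calls, DNA replication 1, CDK inhibitors 4, immediate early genes 1 and clock genes 0. With all 60 arrays the MycON step gave 6, the difference from MycOFF 0, water alone 1, exenatide alone 2, and CDK inhibitors, ribosome biogenesis and nucleotide synthesis 1 each, with 0 for mitosis and the lists not named. Quantile normalization gave 297 for the MycON step, 43 for the difference, 30 for exenatide alone, 10 for ribosome biogenesis, 4 for CDK inhibitors, 2 each for RNA polymerases and glycolysis, and 1 each for the MYC network, beta cell factors, immediate early, ER chaperone and heat shock genes. Scaling by median and deviation gave 348, with 102 for water alone, 24 for exenatide alone, 2 for exenatide against water, 4 for DNA replication, 2 for the MYC network, and 1 each for beta cell factors, immediate early and heat shock genes. Without the filter the difference gave 10 and exenatide against water 1. With probe sets averaged they were 27 for the difference and 28 for exenatide alone, and 1 each for amino acid transport, glycolysis, beta cell factors and ATF4 genes. Array weights gave 397, 13, 172 and 29 for the MycON step, the difference, water alone and exenatide alone, 36 for mitosis, 4 each for DNA replication, cyclins and CDK inhibitors, 2 each for RNA polymerases, immediate early and heat shock genes, and 1 for 4 other lists. Robust moderation gave 8 for exenatide alone. Without both arrays that stood apart, chosen after seeing the data, they were 12 for the difference, 24 for exenatide alone, 3 for exenatide against water, 4 for DNA replication, 3 for ribosome biogenesis and 1 for clock genes. Water alone gave 43 for the step, 11 for mitosis, and 1 each for ribosome biogenesis, DNA replication and CDK inhibitors. Exenatide alone gave 15, with 0 for mitosis and 1 each for ribosome biogenesis, cyclins, CDK inhibitors and nucleotide synthesis.

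Whether replicate numbers pair the arrays could not be decided. Correlations of same-numbered arrays ran from -0.363 to 0.333 over 7 pairs, and those of other pairs from -0.564 to 0.501 over 16. In MycON every value was -0.027 or 0.027 with exenatide and -0.244 or 0.244 with water. Same-numbered and other MycON pairs thus differed only in sign and were not independent. The fit with the replicate number as a block gave 158 calls for the MycON step, of which 148 were shared, with 7 for the difference, 20 for mitosis, 5 for ribosome biogenesis, 8 for exenatide alone and 1 for ER chaperones.

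When each array was left out in turn, counts ran from 42 to 232 for the MycON step, 0 to 10 in MycOFF, 2 to 63 for the difference, 3 to 159 for water alone, 8 to 130 for exenatide alone and 0 to 20 for exenatide against water. They ran from 3 to 31 for mitosis, 2 to 6 for ribosome biogenesis, 0 to 7 for DNA replication, 0 to 4 for cyclins, 0 to 2 for clock genes, 1 to 2 for RNA polymerases, and 0 to 1 for macrophage markers and the lists with 0 calls. An arm left with 1 array was assumed to vary like the other groups. Of the 56 named genes, the calls of the MycON step that held without any single array were those of Cdkn2d, Cdkn2c, Ccbe1, Ccdc137, Fig4, Kifc1, Dctd, Ak4, Ccnb2, Nusap1, Ube2c, Kcnq5, Tmem158, Hpdl, Wdr75, Nop14 and Polr3g. Values are centred, so signal over background could not be read.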

Other observations

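Further genes past the threshold lay outside the gene lists and are named after their values were seen. In MycON, Mt2, which encodes a metallothionein, fell by 2.49 ± 0.64 and Defb1, a defensin gene, by 2.57 ± 0.45 from 16 to 32 h (limma adjusted p = 0.0385 and 0.00141). Their MycOFF steps were -0.62 and -0.33. Rian, a non-coding RNA of an imprinted region, fell by 2.90 ± 0.56, against -0.77 in MycOFF. Rad54l, which acts in homologous recombination, fell by 1.66 ± 0.43, and Clspn, an adaptor of the replication checkpoint, by 2.09 ± 0.49. The cytoskeletal genes Actg1 and Tuba1a fell by 0.84 ± 0.19 and 0.75 ± 0.19, and the deacetylase gene Hdac1 by 0.89 ± 0.22.

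Eef2k, which encodes the kinase that restrains translation elongation, rose by 1.52 ± 0.35 and Tigar, a regulator of glycolysis, by 1.26 ± 0.32 (limma adjusted p = 0.0208 and 0.0361). Esrra, a nuclear receptor of mitochondrial metabolism, rose by 1.12 ± 0.22, and Tac1, the precursor gene of substance P, by 1.43 ± 0.26. The MycOFF steps of Eef2k, Tigar, Esrra and Tac1 lay between -0.23 and 0.12. Smpdl3b, an enzyme of lipid turnover, rose by 1.84 ± 0.34, against 0.15 in MycOFF.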
